A study of Mus musculus with 2 samples.

Results

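The isolated Zfp zinc finger genes were protein-coding genes of the mouse annotation whose symbol is Zfp followed by a number and that had no other such gene starting within 1 Mb on the same chromosome. By that rule 98 of 364 Zfp genes were isolated and 266 were clustered, among 21911 coding genes in all. H3K36me3, trimethylation of lysine 36 of histone H3, was mapped by ChIP-seq in E14TG2a.4, a male embryonic stem cell line of the mouse strain 129/Ola. The samples were 2 biological replicates from separate biosamples of a common donor line, labelled embryonic with an age of 3.5 day, with no treatment given. All samples formed 1 group, so no condition was compared, no test between groups was possible and errors below are the SD over n = 2 replicates. The values came from peaks that the authors called in each replicate on mm10.

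H3K36me3 is laid down by Setd2, which travels with elongating RNA polymerase II, so the mark lies over the bodies of transcribed genes and is low at their promoters. Most Zfp genes encode C2H2 proteins, in which cysteine and histidine pairs hold a zinc ion and repeated fingers read DNA or RNA. Many carry a KRAB domain, which recruits Trim28 and through it the H3K9 methyltransferase Setdb1, and their finger arrays are often encoded in the last exon.

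The first finger of the last exon is shown for 8 genes, because the results below turn on this exon. Each sequence is the coding strand of the GRCm38 reference (the assembly named mm10), 5′ to 3′, with the codons of the zinc-binding cysteines and histidines in capitals. The 8 genes were taken from those named below for the highest shares, the highest fold or the largest last exon differences. That choice favoured covered units, and the numbers over the fingers of marked genes with all fingers in the last exon are given below. 7 of the units lay wholly inside peaks of both replicates, while that of Zfp691 held no covered base in either.
Zfp202: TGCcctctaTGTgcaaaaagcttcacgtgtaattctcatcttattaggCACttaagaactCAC
Zfp655: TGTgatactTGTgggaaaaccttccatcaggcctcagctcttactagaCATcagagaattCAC
Zfp281: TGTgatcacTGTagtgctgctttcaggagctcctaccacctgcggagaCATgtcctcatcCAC
Zfp1: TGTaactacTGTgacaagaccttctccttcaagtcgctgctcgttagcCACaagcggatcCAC
Zfp369: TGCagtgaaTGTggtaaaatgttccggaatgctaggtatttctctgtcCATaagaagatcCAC
Zfp184: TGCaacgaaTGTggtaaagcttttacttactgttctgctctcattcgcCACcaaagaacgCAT
Zfp57: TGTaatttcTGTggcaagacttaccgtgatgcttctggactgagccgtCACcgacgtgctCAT
Zfp691: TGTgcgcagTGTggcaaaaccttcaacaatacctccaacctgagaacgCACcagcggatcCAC
The units lie at chr9:40211120-40211182 for Zfp202, chr5:145244066-145244128 for Zfp655, chr1:136626063-136626125 for Zfp281, chr8:111669901-111669963 for Zfp1, chr13:65297151-65297213 for Zfp369, chr13:21958732-21958794 for Zfp184, chr17:37009679-37009741 for Zfp57 and chr4:119170719-119170781 for Zfp691. Zfp691 is on the minus strand and the others are on the plus strand. Outside the capitals the units had diverged. Over the 28 pairs, between 41.3% and 61.9% of the 63 bases were identical, with a median of 51.6%.

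The limit of 1 Mb was passed narrowly by Zfp951, whose nearest Zfp gene starts 1016.5 kb away and whose gene body was 0.742% and 4.80% covered. Next were Zfp598 at 1070.2 kb, covered to 58.4% and 55.3%, and Zfp651 at 1106.68 kb, with no covered base. Just outside it lay Zfp592 and Zfp710, 968.867 kb from each other, with 33.4% and 32.4% covered for the former and 70.4% and 65.0% for the latter. Zfp788, at 872.537 kb, had 39.5% covered in each replicate.

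Peaks numbered 107779 in replicate 1 and 98185 in replicate 2, covering 139 Mb (5.10% of the genome) and 127 Mb (4.66%). The number of reads is not given in the sources used here, so the depth is unknown. All 8 embryonic stem cell markers looked at were marked, that is, covered over at least 10% of the gene body in each replicate. Nanog had 71.6% and 61.9%. None of 8 fibroblast or 6 primitive endoderm markers held a covered base in either replicate. Of 5 neural genes, Pax6 (16.8% and 21.9%) and Tubb3 (35.2% and 34.5%) were marked. Over all coding genes 37.2% were marked and 50.1% held no covered base, and the neural count is near the former.

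Most isolated Zfp genes carried the mark. Of the 98, 61 (62.2%) were marked, against 37.2% of all coding genes. The clustered genes stood at 157 of 266 (59.0%). No covered base was found in either replicate in 19 of 98 isolated genes (19.4%) and in 53 of 266 clustered genes (19.9%), against 50.1% of all coding genes. The 18 others held some coverage without being marked.

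Isolated and clustered genes stood further apart in how much of the gene was covered than in how many were marked, with no test of either possible. The median covered share was 30.6% and 28.1% in the replicates over the isolated genes (29.3% ± 1.80, n = 2) and 21.3% and 17.2% over the clustered genes (19.2% ± 2.87). Over all coding genes the median was 0%. Coverage of at least 50% in each replicate was found in 27 isolated genes (27.6%), 52 clustered genes (19.5%) and 19.3% of all coding genes. Among marked genes alone, the medians were 48.5% ± 3.99 for isolated genes, 38.7% ± 3.63 for clustered genes and 55.0% ± 2.91 for all coding genes. Isolated genes were longer, with a median of 22868 bp against 16445.5 bp. Their sequence also repeated less. In the last exon a median of 99.3% of 32-base words occurred once in the genome, against 96.1% in clustered genes, and in the rest of the gene 95.3% against 88.6%. The part of length and uniqueness in the difference in coverage was not tested.

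**Figure D1:**
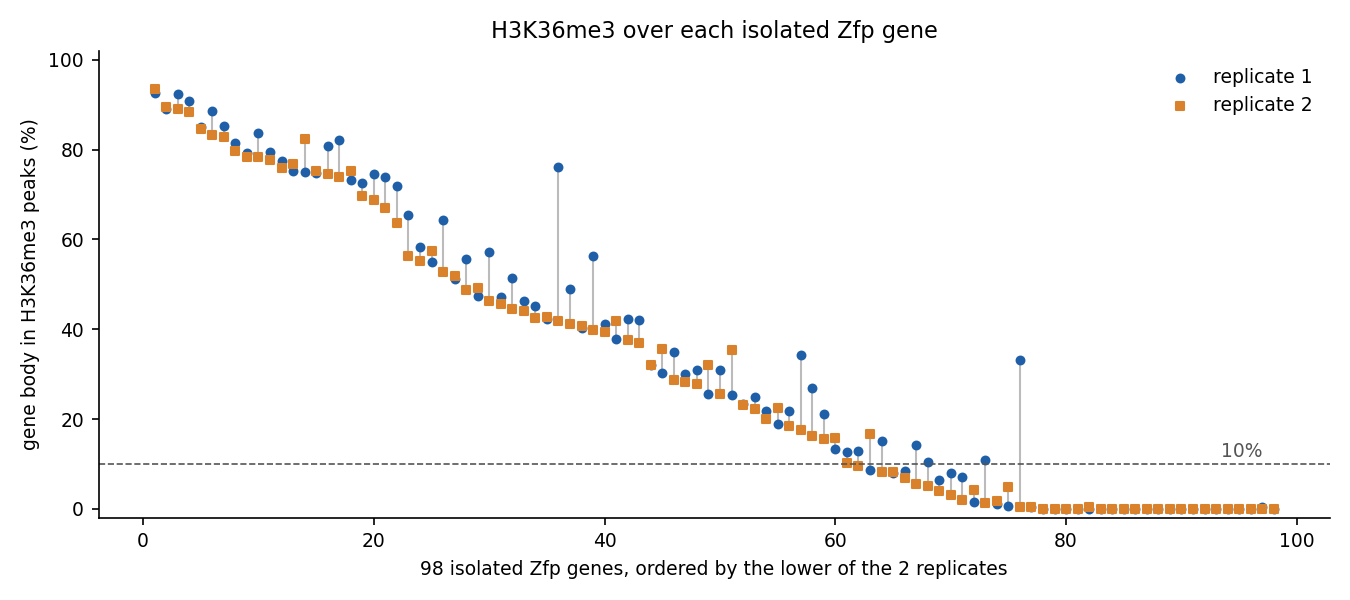
Percent of the gene body in H3K36me3 peaks for each of the 98 isolated Zfp genes, ordered by the lower replicate, with replicate 1 as circles and replicate 2 as squares. The dashed line is the 10% threshold, which 61 genes passed in both replicates, and grey lines join the replicates of a gene.

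The replicates ordered the members almost alike, as the plot of all 98 genes shows. Pearson's r between replicates over the 98 genes was 0.979, given as a description, since genes of a library share its depth. The median absolute difference was 3.12 percentage points over the 61 marked genes. Replicate 1 was higher in 44 of them and replicate 2 in 17. The largest differences were in Zfp750 (76.0% and 41.7%), Zfp830 (33.1% and 0.503%), Zfp422 (34.2% and 17.5%) and Zfp958 (56.4% and 39.9%). In all, 7 genes passed 10% in a single replicate. They were Zfp609, Zfp959, Zfp791, Zfp189, Zfp365 and Zfp830 in replicate 1 and Zfp523 in replicate 2. The unmarked genes with the highest lower replicate were Zfp609 (12.9% and 9.52%), Zfp523 (8.58% and 16.7%), Zfp959 (15.2% and 8.21%) and Zfp619 (8.06% and 8.15%).

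The most widely covered members were marked nearly end to end. Zfp202, at chr9:40192316-40213604, was covered over 92.5% and 93.4% of its body. Zfp532, a partner of the histone reader Zmynd8, had 92.5% and 89.1%. Zfp207, whose protein loads Bub3 onto kinetochores, had 90.7% and 88.4%. Zfp655 (89.1% and 89.6%), Zfp507 (88.5% and 83.2%) and the short gene Zfp296 (85.0% and 84.6%) followed. Zfp687, another Zmynd8 partner, named here after its values were seen, had 74.8% and 75.2%.

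At the other end of the marked genes, most of the 6 with the lowest shares were long. Zfp277 (12.7% and 10.3%), Zfp652 (21.2% and 15.5%) and Zfp148 (21.8% and 18.5%) span 130857, 122443 and 123528 bp. Zfp395 had 13.3% and 15.7% over 40542 bp, and Zfp169 27.0% and 16.2% over 25805 bp. Zfp422 was the short one, at 4984 bp. Marked isolated genes had a median length of 21289 bp and unmarked ones 26560 bp.

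The authors' fold enrichment of each peak, averaged over the gene body with 0 outside peaks, put Zfp142 highest. It was 8.62 in replicate 1 and 12.3 in replicate 2 for Zfp142, whose principal protein holds 37 fingers and whose gene overlaps the coding gene Plcd4. Zfp532 reached 8.39 and 10.2, Zfp57 8.23 and 10.2, and Zfp202 8.01 and 10.6. Replicate 2 was higher in all 4, so levels of fold were read within a replicate only.

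All 12 members grouped under stem cell, imprinting and transcription roles were marked, against 62.2% of the isolated genes and 37.2% of all coding genes. The role lists were drawn up with earlier results of these data known. Zfp57, the KRAB protein that keeps DNA methylation at imprinted loci, was covered over 75.3% and 76.8% (76.1% ± 1.10, n = 2) of chr17:37001163-37010635. Zfp296, a factor of pluripotent cells, had 84.8% ± 0.252. Zfp281, which binds with the pluripotency factors of embryonic stem cells, had 74.9% and 82.3%, and Zfp706, tied to the exit from self-renewal, 77.5% and 76.0%. These 4 genes were covered over most of their bodies in both replicates. Zfp143, an activator bound at many promoters, had 79.2% and 78.3%. Zfp384 had 73.9% and 67.0%, and Zfp462, tied to pluripotency, 64.2% and 52.7%. Lower coverage was found in Zfp217, part of a corepressor complex (47.3% and 45.7%), Zfp292 (49.0% and 41.2%), Zfp219 (42.2% and 42.6%), Zfp827, which recruits the NuRD complex to telomeres (30.9% and 25.6%), and Zfp148.

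Of 7 members with roles in RNA or the ribosome, 6 were marked, against the same 62.2% and 37.2%. Zfp622, a factor of large ribosomal subunit assembly, had 85.2% and 82.8%. Zfp346, which binds double-stranded RNA, had 82.1% and 73.8%, and Zfp106, an RNA-binding protein, 72.5% and 69.6%. Zfp598, the ubiquitin ligase that senses collided ribosomes, had 58.4% and 55.3%, and the RNA-binding Zfp638 34.9% and 28.6%. With Zfp207, coverage in this list spanned a wide range. Zfp830, a splicing factor gene of a single exon, was not marked, and the summit of the strongest peak touching it lay outside the gene in both replicates.

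Of 5 members grouped under differentiated tissues, 1 was marked and 3 had no covered base. Over all coding genes 37.2% were marked and 50.1% had no covered base, so 3 of 5 is near the share of all coding genes. Among the isolated genes 62.2% were marked and 19.4% had no covered base, and 5 genes are few for either comparison. Zfp423, a regulator of preadipocytes, had 6.38% and 4.00%. Zfp521, a cofactor in blood and neural progenitors, Zfp536, expressed in neurons, and Zfp541, a gene of meiotic spermatocytes, had no covered base in either replicate. Zfp750, a regulator of epidermal differentiation, had 76.0% and 41.7%, and it overlaps the coding gene Tbcd. Peaks carry no strand, so marks of overlapping genes cannot be told apart. Another coding gene overlaps 15 of the 98 isolated genes and 13 of the 61 marked ones. The marked ones include Zfp142, Zfp296 (overlapping Gemin7) and Zfp219 (overlapping Arhgef40 and Tmem253). For Zfp296 and Zfp219 the summit of the strongest peak touching the gene lay outside it in both replicates. Without those 15 genes the median covered share was 23.8% ± 2.30. Among genes overlapping no other coding gene, 48 of 83 isolated and 134 of 228 clustered genes were marked. The share marked was then slightly larger in clustered genes.

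**Figure D2:**
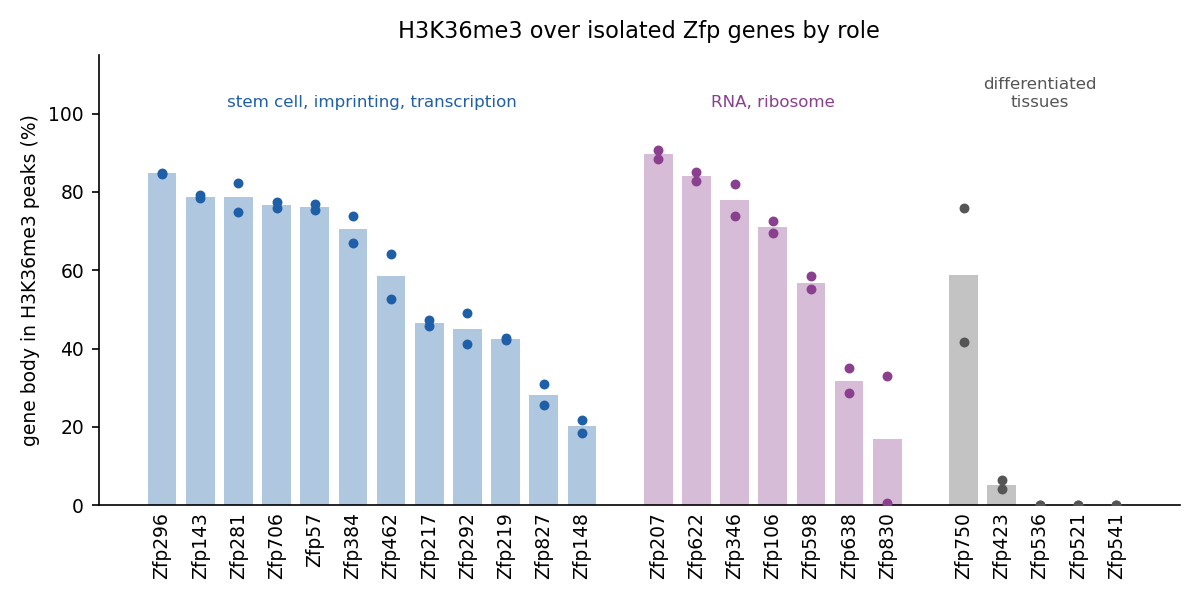
Percent of the gene body in H3K36me3 peaks for the isolated Zfp genes of each role list. Bars are means of the 2 replicates and points are the replicates. All 12 genes of the first list and 6 of 7 of the second passed 10% in both replicates, and 1 of 5 of the third did.

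The partners through which KRAB proteins act were mostly marked too. Of 16 genes listed, which include Setd2 beside these partners, 14 were marked, against 37.2% of all coding genes. Setdb1 had 88.2% and 84.7%, and Trim28, the corepressor that binds KRAB domains, 27.1% and 27.5%. Chd4, the NuRD remodeller, had 95.0% and 94.1%. Zfp410, known as an activator of Chd4 and named after its values were seen, had 55.0% and 57.4%. Setd2, which writes H3K36me3, had 62.8% and 53.0%. Pphln1 of the HUSH complex was not marked, with 15.7% and 7.67%, and Chd3 had no covered base.

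Along the gene the mark of isolated genes grew from start to end. With each marked gene divided into 3 equal parts, the mean coverage was 33.0% ± 2.90 in the first part, 56.5% ± 2.90 in the middle and 68.4% ± 1.10 in the last. The last part was covered more than the first in both replicates in 53 of 61 genes (86.9%), near the 85% of marked coding genes of at least 3 kb. The 116 of 155 clustered genes (74.8%) stood below that. Within 500 bp of the start, mean coverage was 0.581% ± 0.152 and a single gene of the 61 held any in both replicates. Zfp296 held 7.8% there in replicate 2 and none in replicate 1. Within 500 bp of the end it was 48.2% ± 2.25, against 35.9% ± 4.11 in clustered genes and 58.5% ± 1.69 in all marked coding genes.

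The last exon of the principal transcript was covered more than the rest of the gene in most members. Over the 61 marked genes it was covered to 75.2% and 74.6% in the replicates (74.9% ± 0.418, n = 2), and the rest to 48.1% and 44.3% (46.2% ± 2.66). The mean difference was 28.7 percentage points ± 2.24. The last exon was above the rest in both replicates in 50 of 61 genes (82.0%) and below it in 6, against 72.8% above among all marked coding genes with 2 or more exons. In clustered genes it was above in 121 of 157 (77.1%), with a mean difference of 30.3 ± 2.04, and over all marked coding genes the difference was 22.4 ± 1.70. A gene could be marked through its last exon alone, which favours this direction among marked genes, although the last exon made up a median of only 10.9% of the body.

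Little of that difference remained against nearby sequence. Against a window of up to the same length directly upstream and within the gene, the last exon of the 61 genes was higher by 4.71 points ± 1.38. The window was cut at the gene start, so it was shorter where the last exon makes up most of the gene, as in Zfp281 and Zfp319. What this did to the difference was not tested. The last exon was above the window in both replicates in 24 genes and below in 19, against 22.9% above among all marked coding genes. All marked coding genes together gave -0.306 points ± 0.452.

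The members then separated by where the fingers are encoded. In 42 isolated genes all fingers lay in the last exon, in 14 they were split between the last and earlier exons, in 32 no finger lay in the last exon, in 8 no C2H2 finger was found and 2 had a single exon. This grouping was chosen after the files were seen. In the 26 marked genes with all fingers in the last exon, that exon was covered to 77.8% ± 1.62 and the rest to 34.3% ± 1.73, a difference of 43.5 points ± 3.35, and it was above the rest in both replicates in 26 of 26. For some of these the threshold itself set the direction, since in 6 of the 26 (Zfp46, Zfp281, Zfp319, Zfp422, Zfp691 and Zfp770) the rest was under 10% in a replicate, and the last exon made up a median of 20.7% of the body in this class. With genes chosen by the rest alone, at least 10% of it covered in each replicate, 20 of 20 finger genes had the last exon above the rest, by 41.0 points ± 3.59. Over all isolated genes chosen so it was 44 of 55, against 71.2% of all coding genes. In clustered genes with all fingers in the last exon, the last exon was above the rest in 107 of 136 marked genes and below it in 21, with a mean difference of 32.5 points ± 2.47. Chosen by the rest, 84 of 112 of them were above, by 25.4 points ± 2.13. Whether isolated and clustered finger genes differ in this was not tested. In the 11 marked genes with split fingers the difference was 14.9 ± 0.888, with 7 above and 3 below. In the 21 with no finger there it was 20.9 ± 1.43, with 16 above and 1 below. The rest of the gene was covered to 58.5% ± 2.09 and 52.5% ± 3.81 in these latter groups, so the class means lay further apart in the rest than in the last exon, which stood at 73.5% ± 1.20 and 73.4% ± 2.38.

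**Figure D3:**
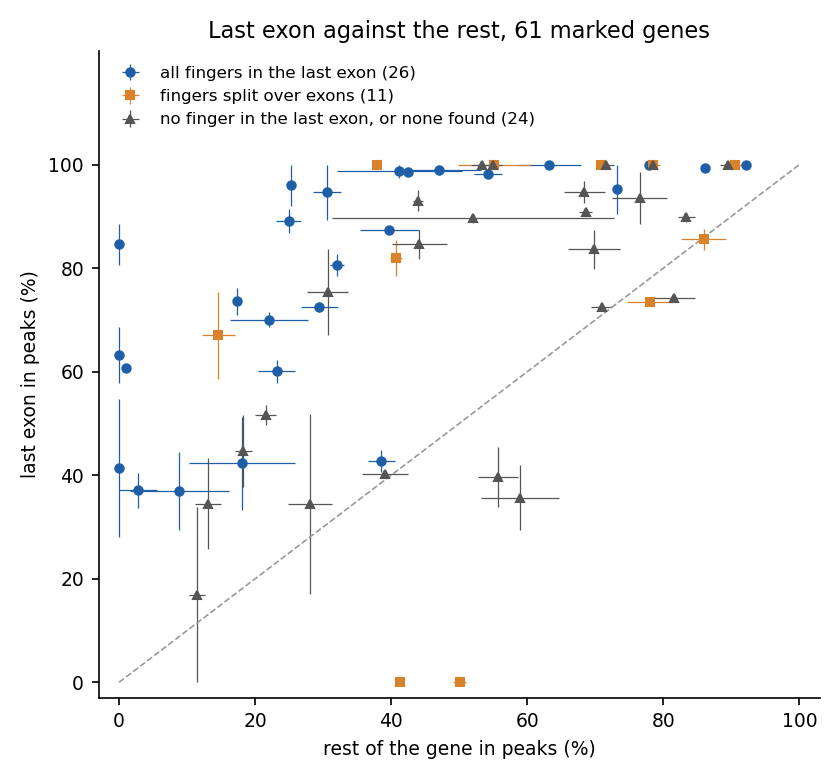
Percent of the last exon in peaks against percent of the rest of the gene in peaks for the 61 marked isolated Zfp genes. Points are means of the 2 replicates, bars span the replicates, and the dashed line marks equality. All 26 genes with every finger in the last exon lie above the line.

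The classes also stood apart against the upstream window. In genes with all fingers in the last exon, that exon exceeded the window by 18.8 points ± 3.50, with 16 of 26 above and 3 below in both replicates. In genes with no finger there, the mean difference was -8.42 points ± 2.15, with 2 of 21 above and 12 below. In genes with split fingers it was 2.31 points ± 3.74, an SD larger than the difference. The clustered genes with all fingers in the last exon gave 14.4 ± 3.68 over 136 marked genes, with 70 above and 32 below. Zfp281 and Zfp319, whose windows were cut short, belong to the isolated genes with all fingers in the last exon.

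Other genes with a long coding last exon showed a step at that exon too. All 26 finger genes have at least 500 coding bases in the last exon. Among all 989 marked coding genes with such an exon, the last exon was above the rest in both replicates in 81% and above the upstream window in 52%. In the 812 of them outside the Zfp genes the difference from the rest was 33.6 points ± 2.01 and from the window 16.4 ± 1.58. The isolated finger genes exceeded these genes over the window by less than their own SD, and their last exon was above the rest in 26 of 26. The clustered finger genes, at 107 of 136 (78.7%), stood near the 81%. That comparison was added after the data were seen.

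The profile around the start of the last exon shows the same step by distance. Every gene counted in each bin, also where the bin lay outside its last exon or its body. The last exon of Zfp207, for example, is 177 bp long, and 5 kb upstream of the last exon of Zfp281 lies outside that gene. In the 26 isolated finger genes coverage was 37.7% ± 1.03 at 5 kb upstream and 68.2% ± 6.58 at 1 kb upstream, and it reached its highest value, 94.2% ± 2.72, in the bin 500 bp into the exon. At 4 kb downstream of the exon start it was 30.6% ± 8.02. The other 35 marked isolated genes already had 65.4% ± 7.21 at 5 kb upstream and reached 89.1% ± 1.25 close to the exon start. All marked coding genes peaked in the first bin of the exon, at 84.2% ± 0.907. They had 69.4% ± 0.587 at 1 kb past the exon start, where the finger genes had 84.7% ± 5.30. The part of exon and gene length in these profiles was not tested.

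**Figure D4:**
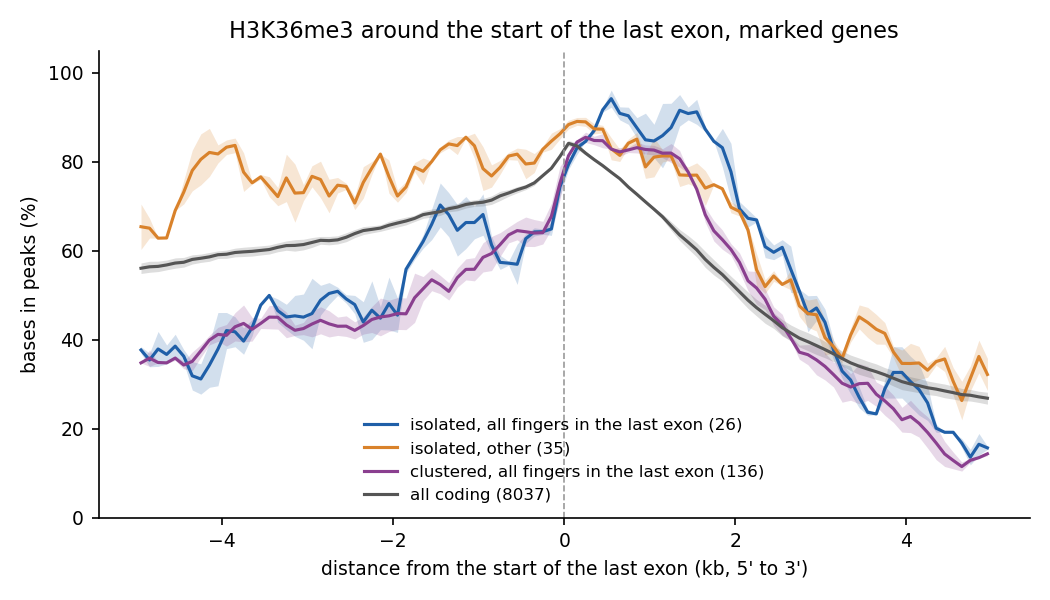
Percent of bases in H3K36me3 peaks in bins of 100 bp from 5 kb upstream to 5 kb downstream of the start of the last exon, in marked genes. Lines are means of the 2 replicates and shading spans them. The 26 isolated genes with all fingers in the last exon start lower upstream and reach 94.2% inside the exon.

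Most of the fingers of the marked genes with all fingers in the last exon lay wholly inside peaks. The 16 unmarked genes of this class, 7 of them with no covered base, were not counted, and marking favoured covered fingers. Of 280 fingers encoded in the last exons of the 26 genes, 246 lay wholly inside peaks in replicate 1 and 260 in replicate 2. Of their bases 88.6% and 93.8% were covered, near the share of the whole coding part given next. In clustered genes of this kind the numbers were 1287 and 1333 of 1612. The coding part of the last exon was covered to 89.0% ± 0.704 and the noncoding part to 61.0% ± 3.57. The noncoding part is all other bases of that exon, so it can include bases before the coding part. The coding part was higher in both replicates in 14 of 26 genes (53.8%) and lower in 1. In clustered finger genes it was higher in 82 of 136 (60.3%) and lower in 7. Among marked isolated genes with no finger in the last exon, 18 had both parts, and the coding part was higher in 11 (61.1%). Their coding part was covered to 96.6% ± 3.83 and their noncoding part to 69.6% ± 3.52, so this was not particular to finger exons. The genes outside the Zfp family with a long coding last exon had 83.8% ± 1.58 and 64.7% ± 2.25, so they too were less covered in the noncoding part.

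In several genes, named here after their values were seen, peaks stopped near the end of the coding part. Zfp62, with 25 fingers, was covered to 100% and 98.1% of the coding part and to 3.78% and 1.94% of the noncoding part of its last exon. For Zfp386 the coding part was fully covered and the noncoding part to 6.28% and 12.9%. Zfp90 had 82.1% and 85.6% of the coding part covered and no base of the noncoding part. Zfp770 was fully covered in its coding part and to 20.8% and 19.4% in the noncoding part. The reverse was seen in Zfp691, where 49.4% and 50.6% of the coding part and 68.6% and 90.9% of the noncoding part were covered, with the finger printed above among the uncovered bases.

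**Figure D5:**
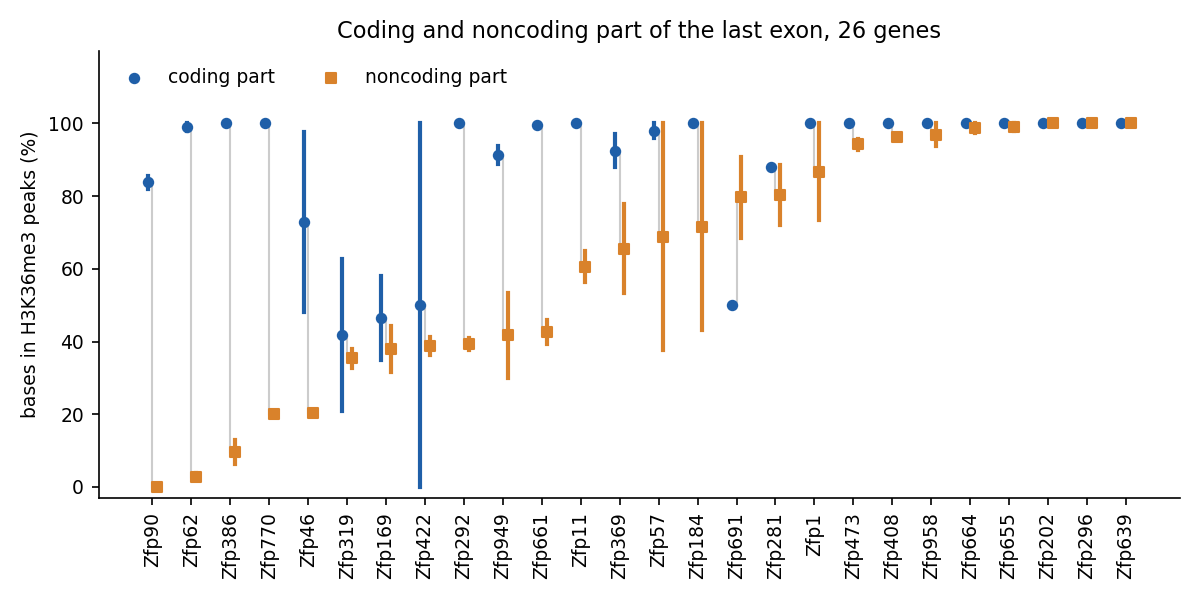
Percent of bases in H3K36me3 peaks in the coding part (circles) and the noncoding part (squares) of the last exon for the 26 marked isolated genes with all fingers in that exon. Markers are means of the 2 replicates and thick bars span them. Genes are ordered from left to right by rising coverage of the noncoding part.

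The largest differences between the last exon and the rest came from both finger classes that reach the last exon. In Zfp281 the last exon, chr1:136625268-136630053, was covered to 80.7% and 88.6% and the rest of the gene held no covered base. This exon makes up 4786 of the 5153 bp of Zfp281, and Zfp281 and Zfp691 were marked through the last exon alone, which fixed the direction of their difference. Zfp1 had 100% and 92.0% in the last exon against 25.9% and 24.6% elsewhere. Zfp369 (64.2 ± 5.99 points), Zfp184 (64.0 ± 10.5), Zfp691 (63.2 ± 7.53) and Zfp219 (62.1 ± 0.307) followed. In Zfp184 the 18 fingers share a fully covered coding part. In Zfp219 the whole last exon was covered in both replicates.

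A few genes ran the other way. Zfp341 had no covered base in its last exon, while 49.1% and 51.1% of the rest was covered. Zfp64 had none in the last exon of its principal transcript either, against 41.1% and 41.6% elsewhere. Another coding transcript of Zfp64 ends in an exon inside the gene, chr2:168925361-168926933, and that exon was covered to 82.1% and 100%. Of the 4 annotated last exons of its coding transcripts, the pair nearest the start of the gene was covered and the pair farther on held no covered base. Zfp462, whose 33 fingers all precede the last exon, had 41.9% and 29.5% in that exon against 64.7% and 53.2% elsewhere. Zfp451, a SUMO ligase (-16.1 ± 4.03 points), Zfp330 (-7.38 ± 4.15) and Zfp131 (-4.58 ± 5.63, an SD larger than the difference) came next.

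Genes with a KRAB-like motif in the principal protein were 19 of the 98. Of these, 11 were marked (57.9%), against 62.2% of the isolated genes and 37.2% of all coding genes. In all 11 the last exon was above the rest in both replicates, by a mean of 42.2 points ± 5.10. Among all marked coding genes with 2 or more exons it was above in 72.8%. Of the 79 without a match, 50 were marked and the last exon was above the rest in 39 of them, with a mean difference of 25.7 points ± 1.61 over all 50. All 11 marked genes with the motif had all their fingers in the last exon. The other 15 marked genes of that class, without a match, were above the rest in 15 of 15, by 44.5 points ± 2.06, so within the class the difference was as large without the motif. Of the clustered genes with the motif, 94 of 176 were marked (53.4%). The last exon was above the rest in 77 of these 94 (81.9%), with a mean difference of 33.9 points ± 1.17. Of those without a match, 63 of 90 were marked (70%) and 44 were above (69.8%), with a mean difference of 24.8 points ± 3.33. The motif was a short pattern of KRAB residues, and no match says only that these letters were not in that protein.

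Unmarked members held what mark they had in different places. The last exon was above the rest in both replicates in 10 of 35 with 2 or more exons, against 6.84% of unmarked coding genes, of which many hold no mark at all. Of 16 unmarked genes with all fingers in the last exon, 7 had the last exon above the rest in both replicates and 7 had no covered base at all. Of the other 19, 3 had the last exon above the rest and 11 had no covered base. In 6 unmarked genes (Zfp69, Zfp365, Zfp423, Zfp438, Zfp523 and Zfp800) there was some coverage but none in the last exon. Zfp619, with 33 fingers, had 28.6% and 31.2% of its last exon covered against 1.18% and 0.448% of the rest. Zfp951 had 0% and 66.7% of its last exon covered, the widest disagreement between replicates among them. Zfp609, an unmarked gene with no finger in its last exon, had 93.4% and 72.3% of that exon covered against 10.8% and 7.95% of the rest.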

How the data were processed

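H3K36me3 ChIP-seq peaks were taken from 2 replicates of 1 group. Per the lists of files that accompany the samples, the authors of the deposited data called narrow peaks on mm10 from filtered alignments, separately for each replicate, and kept those supported by pseudoreplicates (random divisions of a library's reads). The aligner, peak caller and read counts were not given in the sources used here, so the precision set by depth is unknown. Each deposited peak has a fold (ratio over background) and a p-value and q-value written by the authors as −log10. The fold was used only to describe genes within a replicate, and the q-value only for a stricter alternative. Control libraries were not used here.

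Genes were those of GENCODE M21 on GRCm38, and 0 peaks lay past a chromosome end. For symbols with several coding records the longest was kept, leaving out 27. The gene body is the annotated span, the covered share its percent of bases in peaks, and the last exon that of the principal transcript. Marked genes had a share of at least 10% in each replicate. Proteins were translated from the reference, fingers found by the spacing of cysteines and histidines (2 to 4 residues within the first pair, 12 between the pairs and 3 to 5 within the second) and KRAB-like motifs by a pattern of residues. The reference is of another strain than the cells. Zfp42 was not used here. With 1 group no test was run: counts stand beside the percent over all coding genes.

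Genes named were those of the role lists, the 6 with the highest and lowest shares, the 6 largest and smallest differences between last exon and rest, the 4 with the highest fold, the 4 with the largest replicate difference, the 4 highest unmarked and the 3 on either side of 1 Mb. Others are said to be named after their values were seen, and those in the paragraphs on the last exon, single replicates and unmarked genes were too. The members and lists were chosen with earlier results of these data known. Alternatives were other peak sets, thresholds, distances, exon definitions, each replicate alone and, added after seeing the data, genes chosen by the rest of the gene. Procedures were tested on simulated data. Python 3.11.15, numpy 2.4.6 and matplotlib 3.10.9 were used.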

Additional observations from a re-analysis of the deposited data

How the results depend on the processing

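There were 5 values varied here (both marked counts, the median share, and the last exon against the rest as a mean and a count). The mean of the last exon minus the rest stayed positive under every alternative. The marked counts and the median share have no direction of their own. Over genes overlapping no other coding gene, 48 of 83 isolated and 134 of 228 clustered genes were marked. This turned the order of the isolated and clustered shares. Against the upstream window the sign of the mean did turn for isolated genes with no finger in the last exon (20.9 to -8.42 points) and for all marked coding genes (22.4 to -0.306). The 61 marked isolated genes became 27 when marking required 50% of the body, and the 157 clustered ones 52. Replicate 1 or 2 alone gave 62 to 67 isolated and 161 to 164 clustered marked genes. The median covered share (29.3%) was 35.4% with the unthresholded peaks of the other processing run, 40.5% with peaks found in both replicates, 38.9% with the pooled peaks, 24.2% with −log10 q of at least 5 and 23.8% over genes overlapping no other coding gene, and 28.1% to 30.6% with single replicates. The last exon minus the rest (28.7 points) was 26.3 with a distance of 2 Mb, 22.1 with marking at 50%, 24.3 with the last merged exon block, 17.9 against other exons only, 4.71 against the window upstream, 44.3 for the coding part alone and 26.2 over 55 genes chosen by the rest of the gene (added after seeing the data), and 28.1 to 29.5 with single replicates. The 50 genes with the last exon above the rest became 22 of 27 with marking at 50% and 24 against the window, and 54 to 55 with single replicates. The cause of these moves was not tested, except that marking at 50% keeps fewer genes. No paired analysis was possible because the replicates formed 1 group. Read depth, which is unknown, limits which weak marks were called.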
